A study of Homo sapiens with 112 samples.

Results

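The 52 genes described here act in G2 and mitosis, the last phases of the cell cycle. They were taken as a list of gene symbols, drawn up by function by a rule that uses no measured value, although with earlier results of these data known. Of the 58684 genes in the count table, all 52 listed genes were found, and in both cell lines each reached 10 reads in 4 or more libraries, so that none was lost to the filter on low counts. They were compared with the 19266 genes tested in VCaP and the 18204 tested in LAPC4. By role, 13 encode kinases, cyclins and regulators of mitotic entry, 10 belong to the kinetochore and the spindle checkpoint, 3 to the chromosomal passenger complex, 12 to the spindle, 7 to cytokinesis, 4 to anaphase and 3 to chromosome structure.

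Entry into mitosis is driven by CDK1 bound to cyclin B, which CDC25 phosphatases switch on and WEE1 holds back. The spindle checkpoint then delays anaphase until each kinetochore is attached, after which CDC20 and the anaphase-promoting complex mark securin (PTTG1) and cyclin B for destruction. Most of these genes are silent in quiescent cells and are switched on together late in the cycle by a complex of MuvB, B-MYB and FOXM1, so that their summed transcript level is widely read as a sign of proliferation.

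The cells were VCaP and LAPC4, established lines from human prostate cancer in which the androgen receptor is active. The receptor was switched on with the synthetic androgen R1881 and blocked with darolutamide, a drug that competes for its ligand pocket. After 2 days in medium with 10% charcoal-stripped serum, which is poor in hormones, cells received DMSO alone, 1 nM R1881, or 1 nM R1881 together with 0.5 or 2 µM darolutamide, and were collected after 8 or 22 h. In the order DMSO, R1881, 0.5 µM and 2 µM, VCaP had 10, 10, 4 and 5 libraries at 8 h and 8, 9, 4 and 5 at 22 h, and LAPC4 had 10, 10, 5 and 5 at 8 h and 7, 10, 5 and 5 at 22 h. All groups of a line are the same line under the same starvation, and no group received darolutamide without R1881.

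The libraries held 12188455 to 25201678 counted reads, of which 21315 to 137489 fell on the 52 genes. The fewest reads for any of these genes in a library were 48, for SPC25 in VCaP. ERG, which is androgen-driven in VCaP through its fusion with TMPRSS2, had 1578 to 21554 reads in VCaP libraries and at most 1 in LAPC4. KLK3 and FKBP5, known androgen targets, rose with R1881 in both lines. The 5 leukocyte markers summed to at most 11 reads in a library. Of the 5 fibroblast markers, COL1A2 had 0 reads in all VCaP libraries and LUM 2 to 657. Summed over the 5, VCaP libraries at 22 h had 387 to 654 reads with DMSO and 10 to 33 with R1881. Besides LUM, no fibroblast marker exceeded 40 reads in a VCaP library, so the sums with DMSO were mostly LUM. The part of these reads in the results was not tested. The labels do not say that libraries of a group came from separate cultures, and the study's methods, which speak of biological replicates, give a number of them that is not that of every group here, so that p-values measure the spread between libraries, which may be partly technical.

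The start regions of the genes are shown before their levels because many of them hold the same pair of short motifs. The CCAAT box is bound by NF-Y, and the motif TTTGAA, known as the cell cycle genes homology region, is bound by MuvB complexes. RefSeq promoter windows, from 250 bases before to 50 bases after the start, were at hand for 44 of the 52 genes (GRCh38.p14). On either strand, 36 of these 44 genes (81.8%) held CCAAT, against 39.7% of all 27305 genes with a window, and 32 (72.7%) held TTTGAA, against 18.2%. Both motifs occurred in 28 genes (63.6%), against 7.26% of all genes. Of 41 genes of DNA replication and S phase with a window, 24 held CCAAT and 1 held TTTGAA. Within the 150 bases before the start, 35 of the 44 genes held CCAAT and 22 held TTTGAA.

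The 130 bases before the start are printed 5′ to 3′ on the strand of the gene for 6 members whose levels are described further on, with CCAAT (or its reverse complement ATTGG) and TTTGAA in capitals. They belong to CCNB2 (chr15:59105016-59105145, plus strand) and PLK1 (chr16:23678759-23678888, plus) of mitotic entry, KIF20A (chr5:138178982-138179111, plus) of cytokinesis, CDC20 (chr1:43358851-43358980, plus) of anaphase, TOP2A (chr17:40417897-40418026, minus) of chromosome structure and KIF18A (chr11:28108157-28108286, minus) of the spindle.
CCNB2: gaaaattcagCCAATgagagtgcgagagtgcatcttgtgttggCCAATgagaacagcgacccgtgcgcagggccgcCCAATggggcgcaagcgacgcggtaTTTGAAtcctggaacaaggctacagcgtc
PLK1: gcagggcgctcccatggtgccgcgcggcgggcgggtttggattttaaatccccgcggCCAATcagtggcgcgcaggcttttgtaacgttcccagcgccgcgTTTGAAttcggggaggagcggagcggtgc
KIF20A: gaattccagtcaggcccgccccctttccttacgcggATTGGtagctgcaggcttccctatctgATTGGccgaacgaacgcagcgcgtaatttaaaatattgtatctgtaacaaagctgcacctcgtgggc
CDC20: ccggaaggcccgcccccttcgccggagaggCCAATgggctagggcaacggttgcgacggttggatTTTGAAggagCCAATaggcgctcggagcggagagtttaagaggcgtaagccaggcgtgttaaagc
TOP2A: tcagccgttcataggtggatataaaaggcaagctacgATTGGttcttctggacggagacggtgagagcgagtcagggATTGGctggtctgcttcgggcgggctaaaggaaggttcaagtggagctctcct
KIF18A: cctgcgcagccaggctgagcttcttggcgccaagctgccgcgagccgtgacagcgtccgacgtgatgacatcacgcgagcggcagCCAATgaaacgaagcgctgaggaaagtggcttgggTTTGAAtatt
CCNB2 held CCAAT 120, 87 and 54 bases before the start and TTTGAA 29 bases before it. PLK1 held TTTGAA at the same distance of 29 bases. KIF20A and TOP2A held 2 CCAAT boxes each and no TTTGAA in the stretch shown. The motifs share no base in these stretches, and a match of letters is a description, not a shown binding site.

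By the median of the 52 genes, the largest changes of the comparisons made in each line were between 8 and 22 h, and they ran in opposite directions in the lines. In VCaP treated with DMSO, all 52 genes were higher at 22 h than at 8 h (adjusted p under 0.05 in edgeR's quasi-likelihood test, here and below), with a median log2 fold change of 1.31 and a range from 0.59 for MAD2L1 to 1.70 for CENPA, the histone H3 variant of centromeres. Over all genes tested in this comparison, 29.8% were called and 15.9% were called higher. In LAPC4 with DMSO, all 52 genes were lower at 22 h, with a median of -0.41 and a range from -0.64 to -0.14, where 22.1% of all genes were called and 11.4% called lower. In bulk RNA, fewer cells in G2 or mitosis and less RNA per cell cannot be told apart. Nor can time be told apart from any separate culture or preparation of the 8 and 22 h libraries, which the labels do not describe.

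CPM is a gene's reads scaled to the library's total after adjustment by a TMM scaling factor. The log2 values also carry a prior count of 2. The mean log2 CPM of the 52 genes summarises the change with time in each library. In VCaP it was 4.47 ± 0.05 (SD, n = 10) at 8 h and 5.72 ± 0.03 (SD, n = 8) at 22 h with DMSO. In LAPC4 it was 6.27 ± 0.02 (SD, n = 10) at 8 h and 5.86 ± 0.04 (SD, n = 7) at 22 h. The VCaP minus LAPC4 difference of this time change was called for all 52 genes, with a median of 1.69, in a comparison that called 22.3% of all genes. This time comparison between lines was added after the data were seen.

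**Figure D1:**
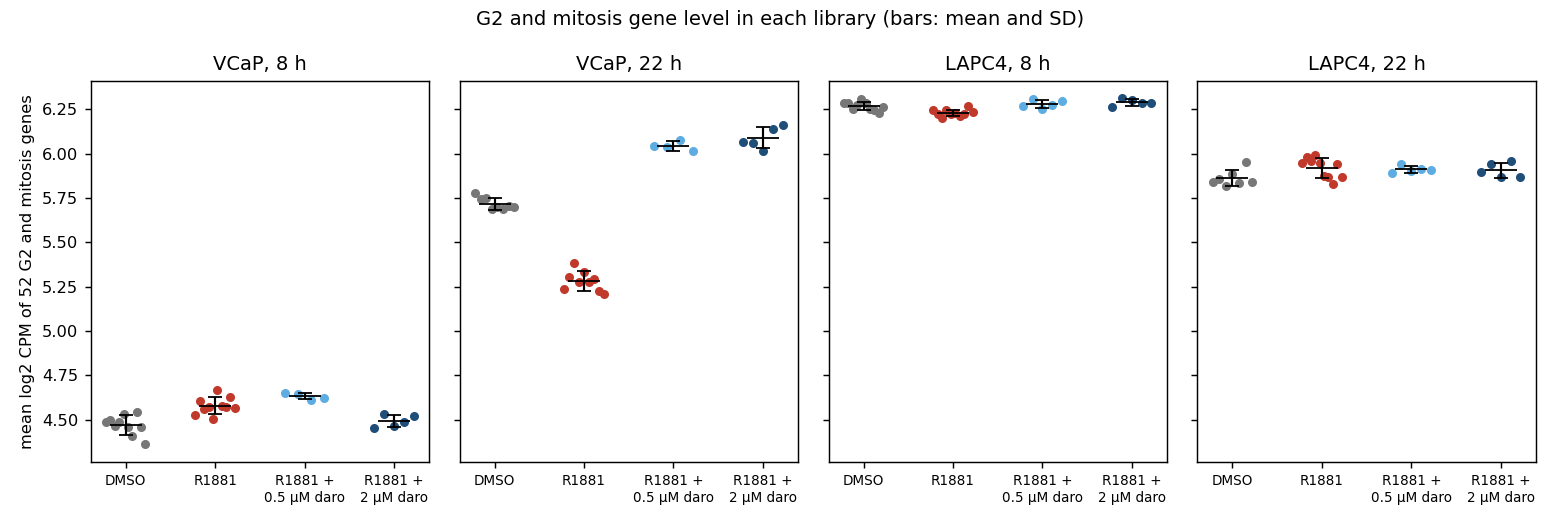
Mean log2 CPM of the 52 G2 and mitosis genes in each library (points), by treatment, for VCaP and LAPC4 at 8 and 22 h; bars give the mean and SD of a group. VCaP libraries rise from about 4.47 at 8 h to 5.72 at 22 h with DMSO, R1881 libraries are lowest at 22 h (5.28) and both darolutamide groups highest (6.04 and 6.09), while the LAPC4 groups lie together within each time.

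The rise with time in VCaP was present under each treatment and differed in size. All 52 genes were higher at 22 h with R1881, with a median log2 fold change of 0.69, where 71% of all genes were called. All 52 were also higher with 0.5 µM darolutamide (median 1.43, 52.5% of all genes called) and with 2 µM (median 1.61, 52.1%). In LAPC4 the corresponding medians were -0.31 with R1881 (51 genes lower; 20.5% of all genes called), -0.37 with 0.5 µM (49 lower, 14.1%) and -0.39 with 2 µM (51 lower, 14.2%). TACC3, a spindle protein, was the gene not called in LAPC4 with R1881 and with 2 µM. These comparisons by treatment were likewise added after the data were seen.

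Against DMSO at the same time, R1881 lowered most of these genes in VCaP at 22 h. Of the 52, 44 were lower and 3 higher, with a median log2 fold change of -0.49, while the median of all genes was -0.03. In this comparison 77.4% of all genes were called, 40% lower and 37.4% higher. All 10 kinetochore and checkpoint genes were lower (median -0.59), as were all 3 chromosome genes, 11 of the 13 genes of mitotic entry, 10 of 12 spindle genes, 5 of 7 cytokinesis genes, 3 of 4 anaphase genes and 2 of 3 passenger genes. FOXM1, a transcription factor of late cell cycle genes, had a log2 fold change of -0.02 and was not called, nor were TACC3, GTSE1, ANLN and CDC20.

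CDC25C, a phosphatase that activates CDK1 (ENSG00000158402, chromosome 5, 138285269 to 138338355, GRCh38, GENCODE 44), fell furthest. Its level was 34.1 CPM at the lowest, 35.5 at the median and 40.3 at the highest in the 8 DMSO libraries, and 15.6, 17.6 and 19.3 in the 9 R1881 libraries. The groups did not overlap. The log2 fold change was -1.06 ± 0.05 (SE), with an adjusted p of 3.1e-27. CDC25C exons overlap exons of FAM53C on the other strand, and the strand setting of the counting was not given in the sources used here.

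TTK, the checkpoint kinase MPS1 (chromosome 6, 80003887 to 80042527), ranged from 54.9 through a median of 61.8 to 71.5 CPM with DMSO. With R1881 it ranged from 33.0 through 34.4 to 41.2 CPM. No R1881 library reached the DMSO libraries, and the log2 fold change was -0.83 ± 0.05 (SE, adjusted p = 1.3e-21). TOP2A, the topoisomerase that untangles sister chromatids (chromosome 17, 40388525 to 40417896), ranged from 681 through 739 to 844 CPM with DMSO and from 386 through 438 to 484 CPM with R1881. Its groups were also apart, with a log2 fold change of -0.79 ± 0.04 (SE, adjusted p = 2.3e-23). Levels by length were taken per kilobase of a gene's merged exons over all its annotated transcripts, which can exceed any single transcript. By this measure TOP2A had the highest level of the 52 genes in VCaP with DMSO at 22 h, 118 RPKM (reads per kilobase, scaled to library size). CKS2 followed at 66.0 and CCNB1 at 52.1 RPKM, and KIF18A was the lowest at 2.93 RPKM.

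ECT2, BIRC5 and MELK were the 3 genes called higher with R1881 at 22 h. ECT2, which activates RhoA at the cleavage furrow (chromosome 3, 172750682 to 172821474), ranged from 136 through a median of 148 to 178 CPM with DMSO and from 159 through 175 to 198 CPM with R1881. These groups overlapped, and the log2 fold change was 0.20 ± 0.05 (SE, adjusted p = 8.8e-05). BIRC5, the survivin subunit of the passenger complex, rose by 0.16 ± 0.04, and MELK, a kinase of proliferating cells, by 0.12 ± 0.05 (SE). With library sizes only and no TMM scaling factors, BIRC5 was at 0.05 and MELK at 0.01 and neither was called, while ECT2 was at 0.09 (adjusted p = 0.0498).

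**Figure D2:**
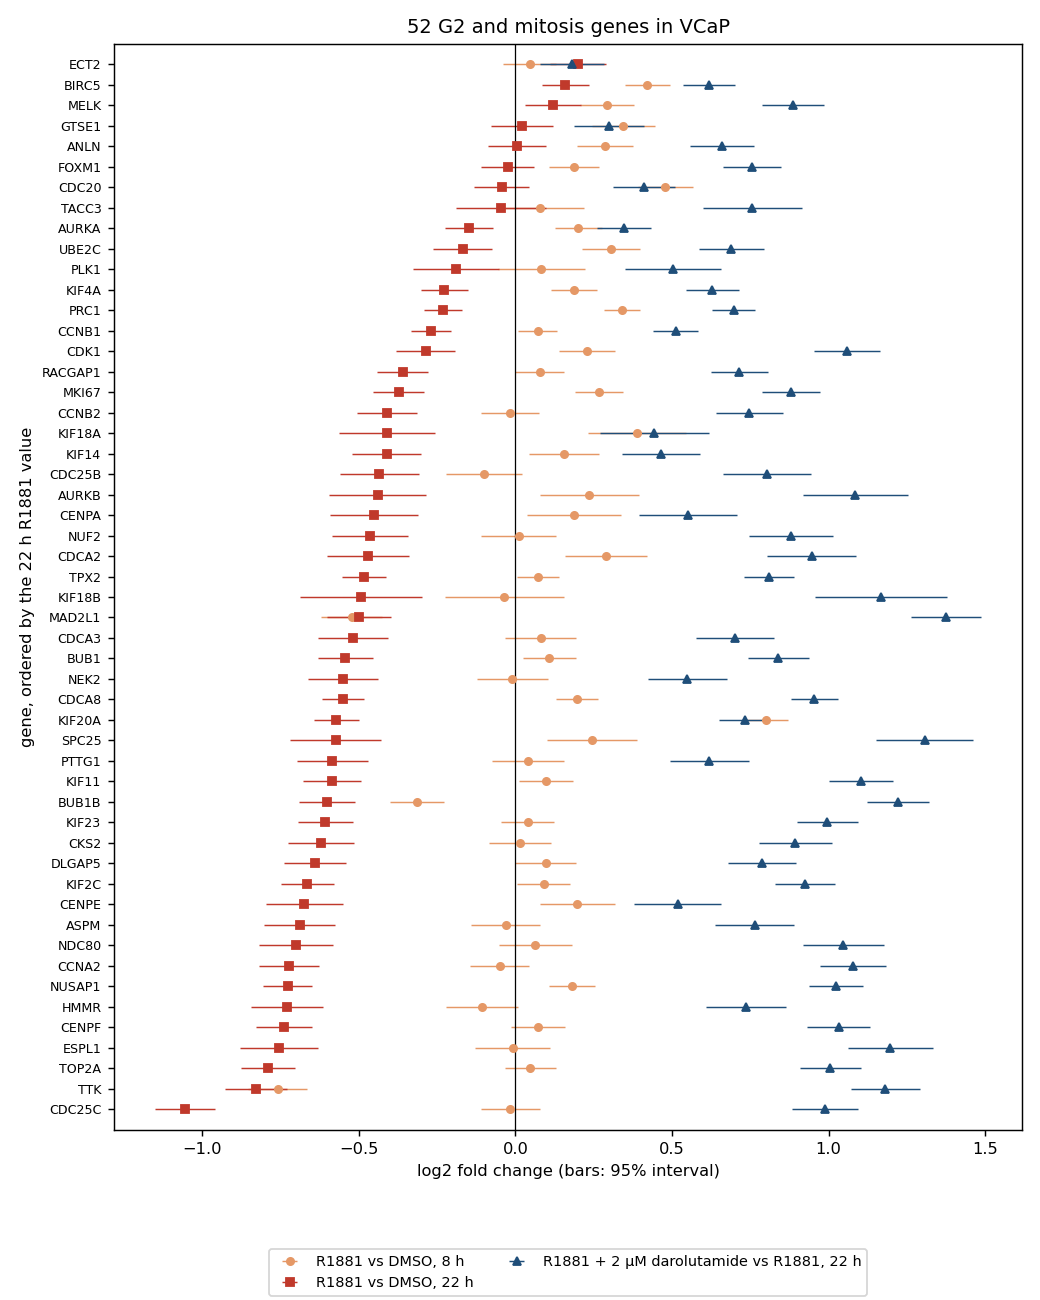
Log2 fold changes of the 52 genes in VCaP with 95% intervals, ordered by the change with R1881 at 22 h (squares); circles give R1881 against DMSO at 8 h and triangles 2 µM darolutamide plus R1881 against R1881 at 22 h. At 22 h most squares lie below 0 (median -0.49) and all triangles above 0 (median 0.80). The circles lie on both sides of 0 (median 0.09), from TTK at -0.76 to KIF20A at 0.80.

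At 8 h the same comparison in VCaP gave another picture. R1881 left 25 of the 52 genes called higher and 3 lower, with a median of 0.09, against 66.9% of all genes called, 32.8% higher and 34.1% lower. Without TMM factors 11 were higher and 18 lower and the median was -0.055, so the general direction at 8 h depends on the scaling. The share of all genes called without TMM factors is not given here. Leaving out those factors moved the median of all genes from -0.03 to -0.18 at 8 h and from -0.03 to -0.14 at 22 h. All 3 passenger genes, 4 of 7 cytokinesis genes and 5 of 13 genes of mitotic entry were called higher with TMM factors. The 3 lower genes were TTK, MAD2L1 and BUB1B, all of the spindle checkpoint.

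KIF20A, the cytokinesis kinesin MKLP2 (chromosome 5, 138178719 to 138187723), rose furthest at 8 h. It ranged from 40.2 through a median of 45.2 to 49.3 CPM with DMSO and from 70.8 through 78.5 to 85.9 CPM with R1881, and the groups lay apart. The log2 fold change was 0.80 ± 0.04 (SE, adjusted p = 9.7e-28). At 22 h KIF20A went the other way, from 133, 136 and 145 CPM (lowest, median, highest) with DMSO to 83.9, 93.1 and 102 CPM with R1881. The difference between its effects at 22 and 8 h was -1.37 ± 0.05 (SE, adjusted p = 1.9e-30). KIF20A exons overlap exons of BRD8 and CDC23 on the other strand.

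CDC20, the activator of the anaphase-promoting complex (chromosome 1, 43358981 to 43363203), ranged from 15.5 through 18 to 19.5 CPM with DMSO at 8 h and from 22.5 through 25.1 to 26.8 CPM with R1881. It rose by 0.48 ± 0.04 on the log2 scale (SE, adjusted p = 2.5e-14). BIRC5 (chromosome 17, 78214186 to 78225636) went from 22.1, 24.8 and 26.4 CPM to 28.4, 33.4 and 37.8 CPM, a log2 fold change of 0.42 ± 0.04 (SE, adjusted p = 2.9e-15). In neither gene did the 8 h groups overlap.

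The 3 checkpoint genes fell at 8 h and again at 22 h. TTK ranged from 33.4 through 36.5 to 41.1 CPM with DMSO at 8 h and from 19.4 through 21.6 to 24.2 CPM with R1881, a log2 fold change of -0.76 ± 0.05 (SE, adjusted p = 1.3e-20). MAD2L1, the MAD2 protein that binds CDC20 (chromosome 4, 120055623 to 120066858), went from 32.0, 39.3 and 44.2 CPM to 22.6, 27.9 and 30.5 CPM, a change of -0.52 ± 0.05 (SE, adjusted p = 5.7e-14). BUB1B, the checkpoint protein BUBR1 (chromosome 15, 40161023 to 40221123), went from 26.5, 29.5 and 32.9 CPM to 20.6, 23.5 and 26.8 CPM, a change of -0.32 ± 0.04 (SE, adjusted p = 7.2e-09). TTK and MAD2L1 showed no overlap of groups at 8 h, while the lowest DMSO library of BUB1B lay just under the highest R1881 library. BUB1B exons also overlap exons of PAK6.

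The difference between the R1881 effects at 22 and 8 h in VCaP was called for 49 genes, 48 lower at 22 h and 1, ECT2, higher (median -0.59, 60.4% of all genes called, 32.3% lower). The genes not called were TTK at -0.07 (95% interval -0.21 to 0.07), MAD2L1 at 0.02 (-0.12 to 0.16) and TACC3 at -0.12.

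**Figure D3:**
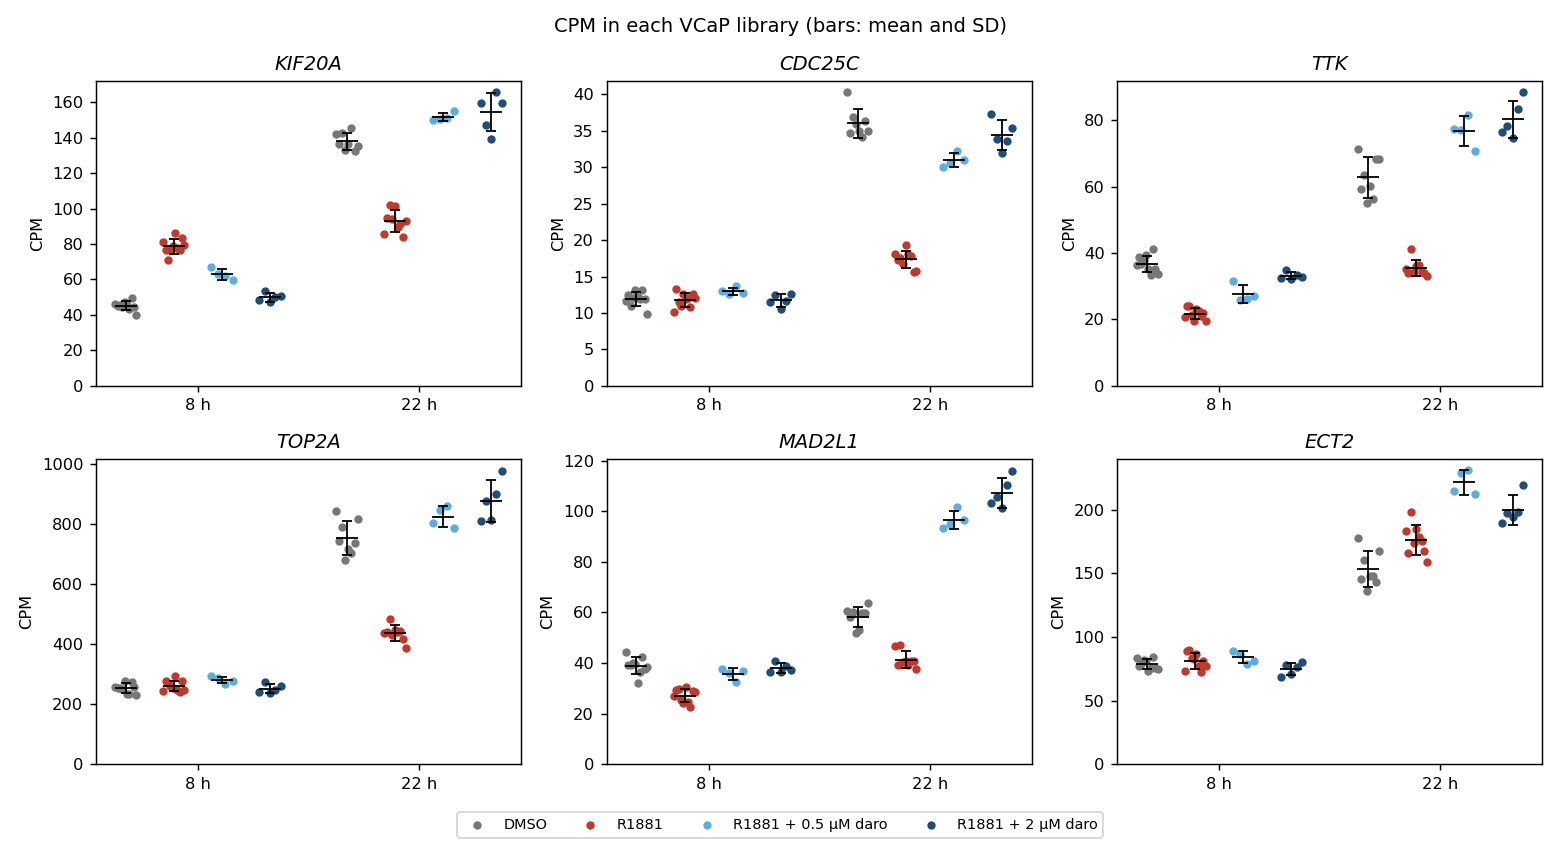
CPM of 6 genes in each VCaP library at 8 and 22 h by treatment; bars give the mean and SD of a group, and each axis starts at 0. KIF20A is higher with R1881 than with DMSO at 8 h (medians 78.5 and 45.2) and lower at 22 h (93.1 and 136), TTK and MAD2L1 are lower at both times, and the CDC25C medians are 12 and 12 at 8 h but 35.5 and 17.6 at 22 h.

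Adding darolutamide to R1881 raised all 52 genes in VCaP at 22 h. With 0.5 µM the median log2 fold change against R1881 was 0.77, where 53% of all genes were called and 26.7% called higher. With 2 µM it was 0.80, ranging from 0.18 for ECT2 to 1.38 for MAD2L1, where 66.9% of all genes were called, 36.1% higher and 30.8% lower. The kinetochore and checkpoint genes had the highest median of the 7 role groups with 2 µM, 1.04, and the anaphase genes the lowest, 0.66, but the difference between role groups was not tested.

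MAD2L1 rose furthest with 2 µM. Its 9 libraries with R1881 at 22 h ranged from 37.6 through a median of 40.7 to 47.2 CPM, and its 5 libraries with 2 µM had 103, 106, 101, 110 and 116 CPM. The 4 libraries with 0.5 µM had 93.2, 95, 102 and 96.5 CPM. Both doses lay above all R1881 libraries and also above the highest DMSO library at 63.9 CPM. The log2 fold change with 2 µM was 1.38 ± 0.06 (SE, adjusted p = 9.1e-29).

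SPC25, a subunit of the NDC80 complex (chromosome 2, 168834132 to 168913371), ranged from 6.16 through 7.17 to 7.81 CPM with R1881 and had 17, 18.1, 16.2, 18.8 and 17.5 CPM with 2 µM. Its log2 fold change was 1.31 ± 0.08 (SE, adjusted p = 1.6e-21). BUB1B ranged from 33.4 through 36.6 to 40.7 CPM with R1881 and had 84.7, 84.9, 79.9, 89.8 and 91.8 CPM with 2 µM, a change of 1.22 ± 0.05 (SE, adjusted p = 7.0e-29). In both genes the groups lay far apart. ECT2 had the smallest rise, 0.18 ± 0.05 (SE, adjusted p = 0.0018), with 190, 198, 194, 199 and 220 CPM at 2 µM against a highest R1881 library of 198 CPM, so that its groups overlapped.

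Whether the doses differed for these genes at 22 h depended on the processing. None of the 52 was called between 2 and 0.5 µM by edgeR, 8 had an unadjusted p under 0.05, and the 95% intervals of the differences reached from -0.27 for ECT2 to 0.35 for KIF18B. With correction for GC content 11 genes were higher with 2 µM and 1 lower, from the 2 groups alone 2 were higher and 1 lower, and leaving out 2 µM replicate 1 or 5 or 0.5 µM replicate 1, 3 or 4 gave 1 call. Over all genes 20.2% were called in this comparison by the edgeR fit used throughout, 10.4% higher and 9.75% lower. The share of all genes under the other settings is not given here. The highest mean belonged to the 2 µM group for 35 genes, to the 0.5 µM group for 15, and the lowest mean to R1881 for 47.

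Darolutamide at 22 h carried most of the genes past their level with DMSO. With 2 µM and R1881 together, 43 genes were higher than with DMSO alone and none was lower (median 0.35, 59% of all genes called, 30.5% higher). With 0.5 µM, 41 were higher and CDC25C was lower at -0.22 (median 0.29, 62.7% of all genes called, 31.9% higher). CDC25C had 37.4, 33.9, 31.9, 33.6 and 35.3 CPM with 2 µM, close to its DMSO median of 35.5, and was not called there at -0.07. The other genes not called with 2 µM were ASPM, HMMR and KIF18A of the spindle, CENPA and CENPE of the kinetochore, the cytokinesis kinesin KIF14, the centrosome kinase NEK2 and securin, PTTG1. PTTG1 has near-identical copies in the genome, which makes its count uncertain. All these comparisons share control libraries and are not independent of each other. The paper reported less proliferation of both lines when darolutamide was added to R1881, in cells pictured at a later time. Proliferation was not measured in these libraries, and how it relates to these transcript levels was not tested.

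At 8 h darolutamide moved a minority of the 52 genes. With 0.5 µM against R1881, 5 were higher and 2 lower (30.6% of all genes called), while without TMM factors 20 were higher and 1 lower. With 2 µM, 3 were higher and 16 lower, with a median of -0.09, where 52.1% of all genes were called, 25.9% higher and 26.2% lower. Without TMM factors 5 were higher and 7 lower, so that both splits at 8 h depend on the scaling. The shares of all genes called without TMM factors are not given here, so those counts concern the 52 alone. With TMM factors, the higher genes with 2 µM were TTK at 0.61, MAD2L1 at 0.49 and BUB1B at 0.32, which R1881 had lowered. The furthest falls were KIF20A at -0.66 and AURKB, the passenger complex kinase, at -0.41. TTK had 32.6, 34.8, 32.1, 33.4 and 32.9 CPM with 2 µM and KIF20A 48.2, 53.6, 47.1, 50.2 and 50.5 CPM. TTK lay above all R1881 libraries (highest 24.2 CPM) and KIF20A below all of them (lowest 70.8 CPM).

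The doses did differ for some genes at 8 h, where 1 gene was higher and 15 lower with 2 than with 0.5 µM (17.6% of all genes called, 7.53% higher and 10% lower). KIF20A had 66.9, 62.8, 61.8 and 59.7 CPM with 0.5 µM, between the R1881 and the 2 µM libraries, and its dose difference was -0.33 ± 0.05 (SE). TTK, the higher gene, had 31.7, 25.8, 26.2 and 26.9 CPM with 0.5 µM and a dose difference of 0.26 ± 0.07 (SE). Against DMSO at 8 h, 7 genes were higher and 1 lower with 2 µM (27.5% of all genes called, 15.4% higher and 12% lower). This count of 8 fell to between 3 and 6 when any 1 library of the 2 µM group was left out, with 3 without replicate 2 and 5 without replicate 4. With 0.5 µM, 28 were higher and 1 lower (44.9% of all genes called, 23.7% higher and 21.2% lower). The 0.5 µM comparison with DMSO was added after the data were seen and was not recomputed under other settings. The 2 µM effect against R1881 was larger at 22 than at 8 h for all 52 genes (median difference 0.88, 48.5% of all genes called, 27.4% higher).

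Related genes are given side by side for R1881 against DMSO and for 2 µM darolutamide against R1881 at 22 h in VCaP. Of the B cyclins, CCNB1 changed by -0.27 with R1881 and by 0.51 with 2 µM darolutamide against R1881, and CCNB2 by -0.41 and 0.75 on the log2 scale. AURKA, the centrosomal Aurora kinase, changed by -0.15 and 0.35, and AURKB by -0.44 and 1.09. KIF18A, a kinesin that shortens microtubules, changed by -0.41 and 0.44, and KIF18B by -0.49 and 1.17. The checkpoint kinase BUB1 changed by -0.54 and 0.84, and BUB1B by -0.60 and 1.22. CDC25B changed by -0.43 and 0.80, and CDC25C by -1.06 and 0.99. Each of these changes was called, and the differences between the partners of a pair were not tested. Further members of mitotic entry and chromosome structure followed the same directions, with CDK1 at -0.29 and 1.06, PLK1 at -0.19 and 0.50, and MKI67, the Ki-67 protein, at -0.37 and 0.88.

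In LAPC4 few or none of the 52 genes were called with the same treatments, where few of all genes were called too (at most 13.3%). At 8 h none was called with R1881 by edgeR (3 at an unadjusted p under 0.05; 2.64% of all genes called), nor with 2 µM against R1881 (8 unadjusted, 1.54%). Neither 0.5 µM against R1881 (3 unadjusted, 0.626%), 2 against 0.5 µM (0 unadjusted, 0.0275%) nor 2 µM against DMSO (2 unadjusted, 0.011%) gave a call among the 52 at 8 h. At 22 h R1881 raised 5 genes and lowered none, with a median of 0.06 (15 unadjusted, 13.3% of all genes called, 6.83% higher). The share of the 52 called was thus close to that of all genes. MKI67 (chromosome 10, 128096659 to 128126423) ranged from 178 through 208 to 241 CPM with DMSO and from 209 through 257 to 269 CPM with R1881, a log2 fold change of 0.24 ± 0.06 (SE, adjusted p = 0.0031). MAD2L1 rose by 0.13 ± 0.04 and BIRC5 by 0.12 ± 0.04 (SE), followed by CDCA8 and KIF4A at 0.12 and 0.11, and the groups overlapped in MKI67, MAD2L1 and BIRC5. The count of 5 depended on the processing. With correction for GC content 22 genes were higher, with control libraries limited to replicates 1 to 5 it was 8, and with replicates 6 and above, which leave 2 DMSO libraries, it was 0. The share of all genes called under these settings is not given here, so these counts concern the 52 alone.

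With 2 µM against R1881 at 22 h in LAPC4, MAD2L1 was the only gene called, at -0.16 ± 0.04 (SE, adjusted p = 0.0071; 10.5% of all genes called). Its R1881 libraries ranged from 52.9 through 57.2 to 64.4 CPM and its 2 µM libraries had 49.8, 56.0, 50.6, 53.0 and 49.7 CPM, so the groups overlapped. Without 2 µM replicate 5, 3 genes were called, 2 of them higher, and with correction for GC content 9 were called, 2 higher and 7 lower. The shares of all genes called under these settings are not given here. With 0.5 µM none was called (3 unadjusted, 5.89% of all genes). Between the doses none was called either (1 unadjusted, 0.258%), with intervals from -0.35 for KIF18B to 0.21 for CENPE. With 2 µM against DMSO none was called (6 unadjusted, 0.0165%), nor with 0.5 µM against DMSO (10 unadjusted, 0.648%).

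The lines were compared in a joint fit. At 22 h the R1881 effect was lower in VCaP than in LAPC4 for 47 genes and higher for none (median difference -0.60, 68.5% of all genes called), the others being ECT2, BIRC5, MELK, ANLN and GTSE1. The 2 µM effect at 22 h was higher in VCaP for all 52 (median difference 0.81, 58.9%). At 8 h the R1881 effect was higher in VCaP for 15 genes and lower for 3 (58.5% of all genes called), and the 2 µM effect was higher for 3 and lower for 13 (39.9%). The lines also differed in level with DMSO at 8 h, where the mean log2 CPM, scaled within each line, was 4.47 in VCaP and 6.27 in LAPC4. With DMSO at 22 h the means given above lay much closer together.

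Genes of S phase, the phase before G2, gave other counts with R1881, and the difference between the lists was not tested. Of 44 genes of DNA replication, 27 were higher and 7 lower in VCaP at 22 h, with a median of 0.24, where the 52 had a median of -0.49 and 77.4% of all genes were called (37.4% higher, 40% lower), so that the share of the 44 called was close to that of all genes. CDC6, a loader of the replicative helicase, was at 1.23, FEN1, a flap nuclease, at 0.75 and the primase PRIM1 at -1.41. With 2 µM darolutamide against R1881 all 44 rose (median 1.15), as the 52 did, where 36.1% of all genes were called higher. Between 8 and 22 h with DMSO, 8 of the 44 were higher and 7 lower (29.8% of all genes called), against 52 higher of the 52. In LAPC4 at 22 h, 33 of the 44 were higher with R1881 (6.83% of all genes called higher) and 21 lower with 2 µM against R1881 (5.47% called lower).

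**Figure D4:**
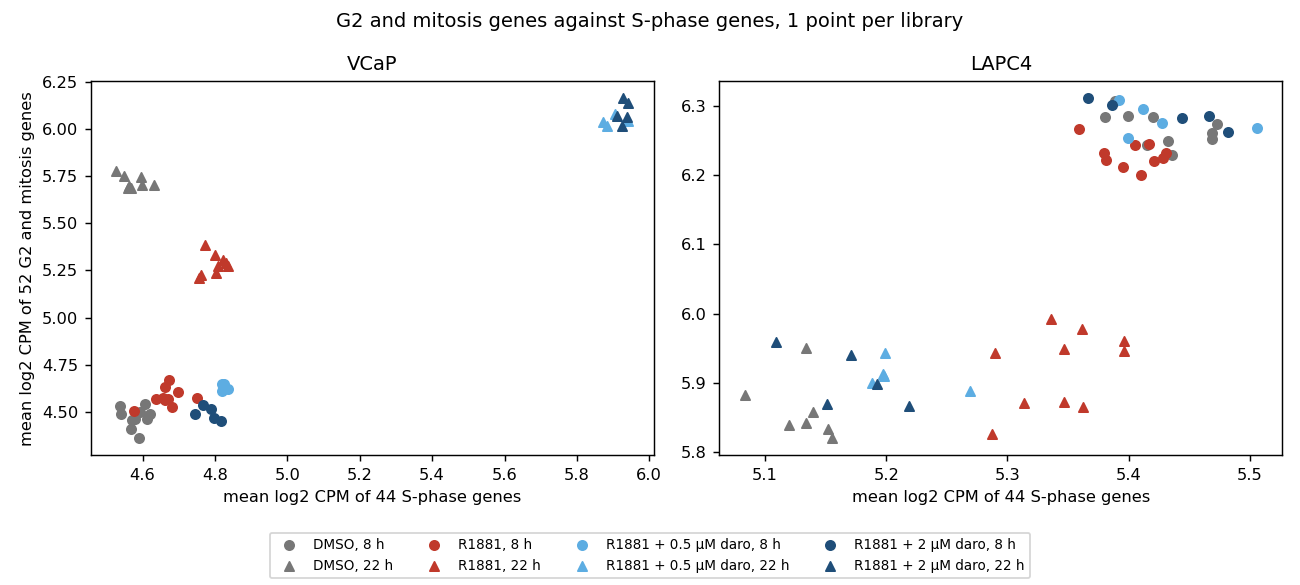
Mean log2 CPM of the 52 G2 and mitosis genes against that of 44 S-phase genes in each library, for both lines, by treatment and time. In VCaP the R1881 libraries at 22 h stand below the DMSO libraries on the axis of the 52 genes (means 5.28 and 5.72), while the median S-phase gene was higher with R1881 by 0.24.

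Regulators of late cell cycle genes were called in VCaP with R1881 at 22 h in both directions, as were all genes (37.4% higher, 40% lower). Of 22 genes of E2F, DREAM, MYB-MuvB and NF-Y transcription regulators, 13 were higher and 7 lower, among them the activators MYBL2 (B-MYB) at 0.75 and E2F1 at 1.37, the repressor RB1 at 0.82 and TFDP2 at -1.11. With 2 µM against R1881, MYBL2 changed by 1.17 and E2F1 by 0.84. Of 17 genes of the anaphase-promoting complex and its partners, 9 were higher and 4 lower with R1881, a share called close to the 77.4% of all genes, with ANAPC4 at -1.23, ANAPC13 at 0.55 and ANAPC1 at -0.44. Of the 14 tested genes that control mitotic entry, 8 were higher and 5 lower. CDKN1A, the CDK inhibitor p21, rose by 2.03 ± 0.06 (SE) and changed by -1.71 with 2 µM against R1881, while WEE1 was at -0.60 and 1.13.

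At 8 h in VCaP, CDKN1A was at 1.00, WEE1 at -0.46, MYBL2 at 0.39 and E2F1 at 0.24 with R1881. In LAPC4 at 22 h, MYBL2 rose by 0.29 and E2F1 by 0.42 with R1881, and both fell with 2 µM against R1881, at -0.36 and -0.32. CDKN1A in LAPC4 was at 0.01 (adjusted p = 0.975) and WEE1 at -0.05 with R1881. Of the same lists in LAPC4 with R1881 at 22 h, where 13.3% of all genes were called (6.83% higher, 6.45% lower), 5 of the transcription regulators were higher, no gene of the anaphase-promoting complex was called, and 2 entry genes were higher and 1 lower.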

How the data were processed

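RNA was read as poly-A, stranded libraries, single-end. The deposited table holds raw counts of reads per gene, which the authors made with bcl2fastq 2.17, STAR and featureCounts on GRCh38, per the submitters' processing notes; the annotation release, the strand setting and the handling of reads with several matches were not given in the sources used here. Counts were used as deposited. Genes that reached 10 reads in 4 or more of a line's libraries were kept, scaled by TMM and fitted with edgeR 4.0.16 (limma 3.58.1, R 4.3.3) by the quasi-likelihood test with 1 mean per group, 8 groups of a line together and both lines jointly for differences between lines. P-values were adjusted by Benjamini-Hochberg over all genes tested, with a threshold of 0.05. CPM and RPKM carry the same TMM scaling and are for display. The SE was taken as |log2 fold change| over the square root of F.

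The members and lists were chosen with earlier results of these data known. All members may be named, and full statistics go to the 3 largest rises and falls called with R1881 at 8 and 22 h and with 2 µM darolutamide at 22 h, to related pairs, and to MYBL2, E2F1, WEE1, CDKN1A and the 3 genes of smallest adjusted p per other list. Positions are from GENCODE 44. By exon overlap, 18 members share bases with another gene, 16 of them on the other strand. Replicate numbers did not pair libraries: libraries of the same number had a mean correlation of deviations of -0.012 in VCaP and 0.106 in LAPC4, and 8 of 55 and 7 of 57 libraries were closest to their own number. DESeq2 1.42.0, no TMM factors, no count filter, GC correction, control libraries 1 to 5 or 6 and above and a replicate block were tried as alternatives. Each library of the darolutamide groups was also left out in turn, but no single DMSO or R1881 library was.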

Additional observations from a re-analysis of the deposited data

Results flagged for a closer look

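The following differences between times or lines were tested by an interaction term in edgeR, and no library stood apart from its group in the mean level of the 52 genes in the 16 groups. In VCaP the R1881 effect differed between 22 and 8 h for 49 genes, 48 of them lower at 22 h (60.4% of all genes called). The 2 µM darolutamide effect differed between the times for 52 (48.5% of all genes called). KIF20A had the furthest difference in the R1881 effect, at -1.37, and ECT2 was the gene that was higher at 22 h, at 0.16. In LAPC4 the R1881 effect differed between times for 2 genes, CDCA8 and BIRC5, a share of the 52 close to the 3.21% of all genes called. The count was 23 with correction for GC content and 0 with control replicates 6 and above, settings for which the share of all genes is not given here.

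Between VCaP and LAPC4, the change from 8 to 22 h with DMSO differed for 52 genes (22.3% of all genes called). The R1881 effect differed for 18 genes at 8 h (58.5% of all genes called) and for 47 at 22 h (68.5%). The 2 µM effect differed for 16 genes at 8 h (39.9%) and for 52 at 22 h (58.9%). At 8 h both shares of the 52 were below those of all genes. The lines also differ in much else, and the source of these differences was not tested.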

How the results depend on the processing

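The number of called members was recomputed 314 times over 28 comparisons, and 259 values stayed within 1.5 times the main count. The shares of all genes called under these settings are not given here, so the counts below concern the members alone. In VCaP at 22 h, R1881 against DMSO gave 44 to 49 called genes in all settings tried for it, which did not leave out single libraries in turn. A change of sign of the median was looked for only in comparisons that called most of the 52 genes. There it was found for R1881 at 8 h in VCaP, -0.055 without TMM factors against 0.09. Medians of the other comparisons were not checked for it. In VCaP at 8 h, without TMM factors, 21 genes were called for 0.5 µM against R1881 (20 higher), 12 for 2 µM against R1881 (5 higher, 7 lower), 10 for 2 against 0.5 µM, and 9 for the 2 µM difference between lines. R1881 gave 11 higher and 18 lower, and its difference between lines 10 higher of 16. With control replicates 1 to 5, R1881 at 8 h gave 16 higher of 21. For 2 µM against DMSO at 8 h, DESeq2 gave 5, GC correction 14, control replicates 1 to 5 gave 3 and no filter 4. For 2 against 0.5 µM at 8 h, GC correction gave 27 and no filter 10. At 22 h the dose comparison gave 12 with GC correction, 1 without TMM factors and 3 from the 2 groups alone.

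In LAPC4 at 22 h, R1881 gave 22 with GC correction, 8 with control replicates 1 to 5, 0 with replicates 6 and above and 2 with no filter. For 2 µM against R1881 the counts were 9 with GC correction, 6 with replicates 1 to 5 and 2 with replicates 6 and above, for 0.5 µM against R1881 2 with GC and 1 with replicates 1 to 5, and for 2 µM against DMSO 2 and 1. At 8 h, GC correction gave 5 for R1881 and 4 for 2 µM against R1881. The R1881 difference between times gave 23 with GC correction, 0 with replicates 6 and above, 1 without TMM factors and 0 with no filter. The cause of these changes was not tested.

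The replicate block, on numbers that do not pair the libraries, gave 5 for VCaP 2 µM against DMSO at 8 h, and in LAPC4 6 for 2 µM against R1881 and 1 for 2 µM against DMSO at 22 h, and 1 for 2 µM against R1881 at 8 h. The block with GC correction gave, in LAPC4 at 22 h, 26 for R1881, 14 for 2 µM and 8 for 0.5 µM against R1881 and 8 for 2 µM against DMSO, at 8 h 9, 5, 1 and 2 in that order, and 24 for the R1881 difference between times. In VCaP it gave 30 for 2 µM against R1881 and 26 for the doses at 8 h, and 11 for the doses at 22 h. Leaving out 1 library of the darolutamide groups gave 3 to 6 for VCaP 2 µM against DMSO at 8 h (3 without 2 µM replicate 2, 5 without replicate 4), 11 to 17 for the doses and 17 to 22 for 2 µM at 8 h, 6 to 8 for 0.5 µM, 0 to 1 for the doses at 22 h (1 without 2 µM replicate 1 or 5 or 0.5 µM replicate 1, 3 or 4), 1 to 3 for LAPC4 2 µM at 22 h (3 without 2 µM replicate 5, 2 of them higher, where the main call was lower) and 0 to 1 at 8 h (1 without 2 µM replicate 2). For correction by GC content, a slope of expression on GC content was taken for each library and entered as a covariate in the fit of all genes tested. GC content was known for 84% of the genes tested.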

Other observations

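Within groups, the 52 genes varied together from library to library more than most genes did. The median pairwise correlation of their deviations from the group means was 0.308 over 55 VCaP libraries and 0.251 over 57 LAPC4 libraries, against 0.157 and 0.030 for the S-phase genes and 0.031 and 0.012 over all genes. After correction for GC content the medians for the 52 were 0.174 and 0.157, and those for the S-phase genes 0.117 and 0.088. Libraries shared across pairs and GC content bear on these values, which are a description without a test.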
